A study of Ovis aries with 16 samples.

Results

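The genes described here encode the protein machinery that removes introns from messenger RNA precursors. They were the rows of the deposited expression table whose symbol begins with SNRP, SF3A, SF3B, SRSF and a digit, PRPF or HNRNP, with a mean normalised read count of at least 10 in liver or muscle. Of 65 matching rows, 64 met the minimum, in both tissues, out of 28524 genes in the table. The remaining row, SNRPN, was listed at 0 in all 16 libraries. The member closest to the minimum was SNRPG, with means of 23.8 in liver and 55.1 in muscle. The 64 genes comprised 7 Sm core genes, 4 genes for proteins specific to the U1 or U2 particle, 9 SF3A and SF3B genes, 13 PRPF genes, 11 SR protein genes and 20 hnRNP genes.

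The study sequenced RNA from the liver and the vastus lateralis, a thigh muscle, of 8 female Suffolk sheep, to ask how exposure to bisphenol A (BPA) before birth changed these tissues. BPA is a plasticizer with oestrogen-like activity. Mothers of the BPA group were injected subcutaneously each day with 0.5 mg/kg BPA dissolved in corn oil, from day 30 to day 90 of gestation, and mothers of the control group with corn oil alone. Tissue was taken from all daughters at about 21 months, after 48 hours without food and in the late follicular phase of a cycle synchronized with prostaglandin F2α, so both groups share the fast and the hormone treatment. Each of the 4 groups (control liver, BPA liver, control muscle, BPA muscle) held 4 libraries from separate animals, and each animal gave both tissues. The control animals were 902, 908, 924 and 928 and the BPA animals 910, 918, 977 and 984, and library values are listed in these orders throughout. Liver came from the tip of the left lobe, so each library samples 1 site of the organ.

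The spliceosome is built anew on each intron from small nuclear ribonucleoprotein particles (snRNPs), which combine a small nuclear RNA with proteins. Sm proteins form a ring around the RNA of most of these particles and are small and needed in fixed proportion to each other. The SF3A and SF3B complexes belong to the U2 particle and hold it at the branch point, and PRPF proteins build and rearrange the later, catalytic stages. SR proteins bind exons through RNA recognition domains, carry arginine and serine repeats that are phosphorylated, and mostly favour inclusion of the exon. Many hnRNP proteins bind introns or splice site neighbourhoods and often act in the opposite sense. Several SR and hnRNP genes control their own transcripts through exons that lead to decay, and the splicing of many metabolic genes in liver and of contractile genes in muscle depends on these families.

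Values are normalised read counts, which are reads divided by 1 factor per library, and reads were recovered by undoing that division. Differences are given on the scale of log2(normalised count + 1), which understates changes of low counts, with limma p-values adjusted over all genes tested. Liver libraries differed from one another far more than muscle libraries. Recovered depth, in units of 1000000 reads (M), was 4.39 M in control liver 902 and 17.93 to 19.28 M in the other controls, 17.92 M in BPA liver 910 and 4.66, 7.27 and 10.64 M in BPA livers 918, 977 and 984, and 15.15 to 28.54 M in muscle. Hepatocyte markers were present in every liver (14 of 14 with a mean of at least 10 in each liver group), but their summed count was 67351 in control liver 902 against 1290040 to 1462070 in the other controls, 1324120 in BPA liver 910 and 290179 to 445082 in the other BPA livers. Control liver 902 also held a fibroblast marker sum of 122724, against 3650 to 9529 in the other 7 livers, and a cholangiocyte marker sum of 13552 against 304 to 877. The macrophage marker sum was 974 to 2174 in BPA livers 918, 977 and 984 and 5737 to 9309 in the other 5 livers. Skeletal muscle fibre markers summed to 113 to 643 in liver and to 3607100 or more in muscle, where all 14 were present. In bulk tissue, fewer cells of a type and less RNA per cell cannot be told apart. Control liver 902 and BPA liver 910 stood apart from their groups, and 910 lay with control livers 908, 924 and 928 in depth and in these marker sums. The labels were kept as given, and every BPA estimate in liver rests on them. Whether the 2 livers were exchanged or sampled differently was not tested. Counts of called members in liver are given with and without these libraries, while values of single genes include both unless stated.

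Spread among the members followed the same contrast between tissues. The standard deviation of log2(count + 1) within a treatment group had a median of 0.53 over the 64 members in liver and 0.12 in muscle, against 0.63 and 0.21 over all genes tested. PRPF39 varied most in liver, with a standard deviation of 1.13, and HNRNPA1 least, with 0.11.

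**Figure D1:**
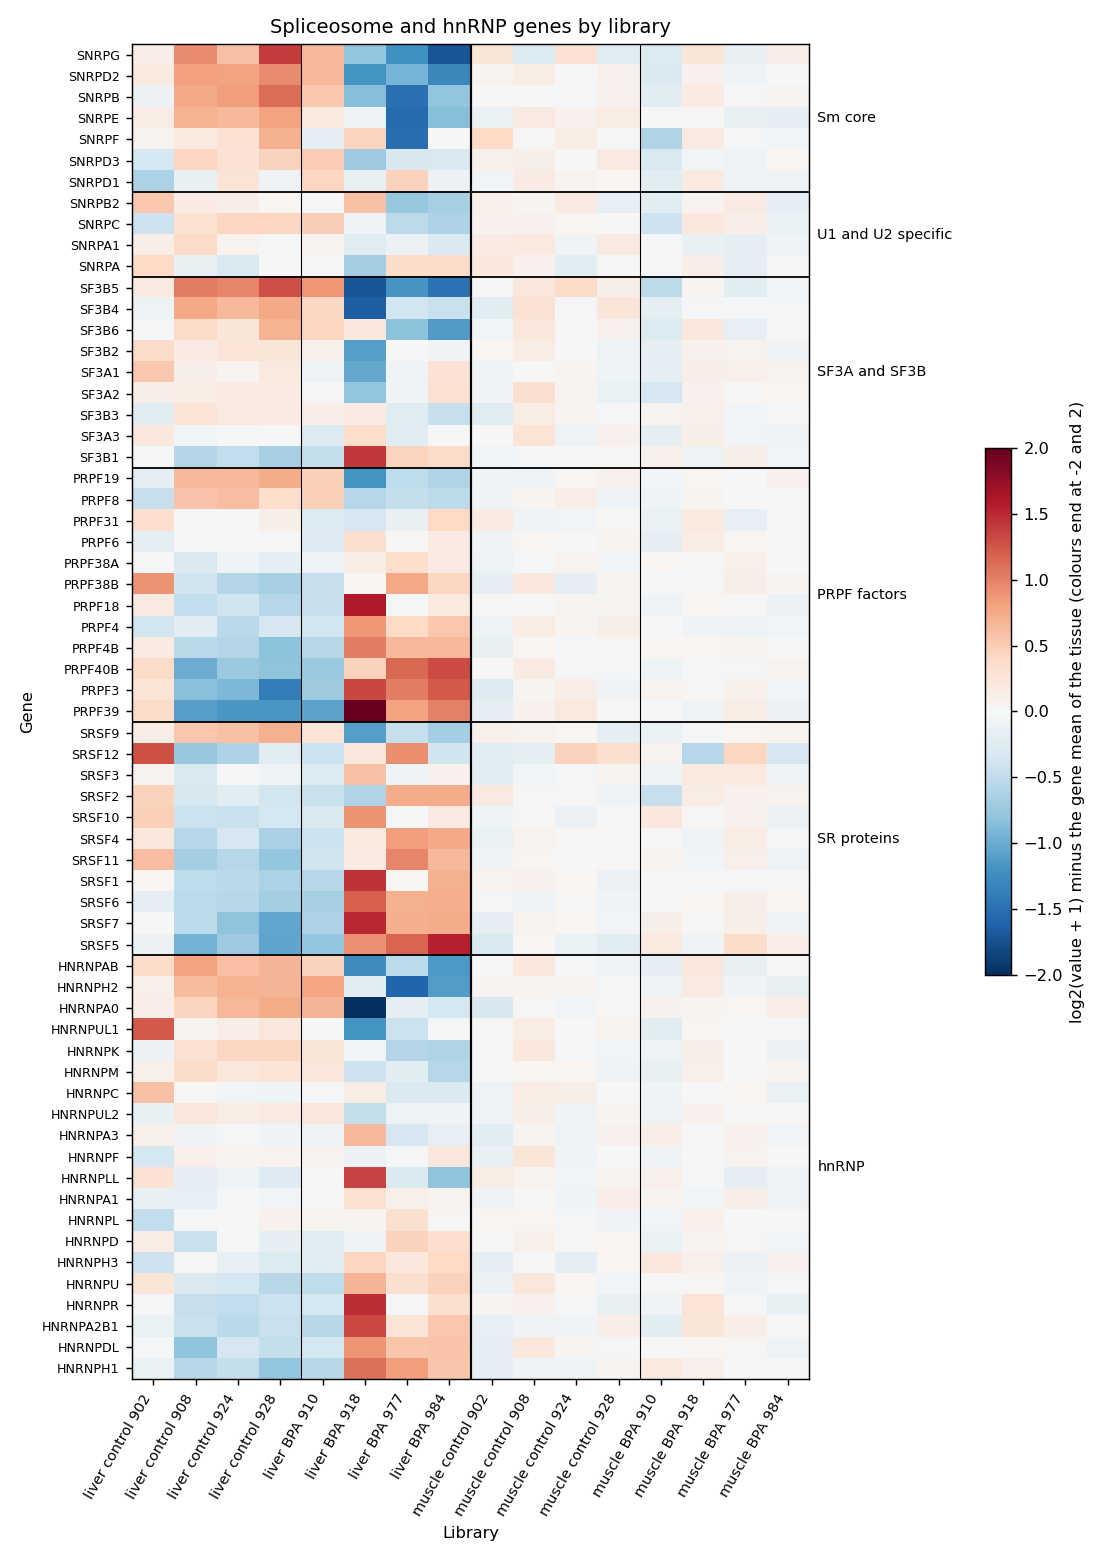
Each row is a gene and each column a library. Colour gives log2(normalised count + 1) minus the gene's mean over the 8 libraries of that tissue, ending at -2 and 2. Control livers 908, 924 and 928 and BPA liver 910 share 1 pattern, BPA livers 918, 977 and 984 show the opposite one, control liver 902 lies between them for many genes, and the muscle columns are pale.

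In liver, no member passed the test for BPA against control, and the point estimates ran in opposite directions for Sm and SR genes. The median log2 difference was -1.15 over the 7 Sm genes, with 6 of 7 below 0, and 0.68 over the 11 SR genes, with 10 of 11 above 0, where 49.3% of all genes had an estimate above 0. It was 0.10 over the 20 hnRNP genes, 12 of them above 0, and -0.01 over all genes tested. Without BPA liver 918 the hnRNP median was 0.01. By limma 0 of 64 members passed an adjusted p of 0.05, where 0% of 15689 genes passed. At an unadjusted p under 0.05 there were 17 members, 8 higher and 9 lower in BPA liver, beside 18.1% of all genes (7.8% higher and 10.3% lower). The edgeR and DESeq2 tests on recovered reads also called 0 members, with 16 and 23 members at an unadjusted p under 0.05. Dividing recovered reads by the library total, in place of the deposited factors, also gave 0 called members. It moved the median of all genes to 0.16 and the medians to -0.99 for Sm, 0.85 for SR and 0.27 for hnRNP genes. Half-widths of the 95% intervals had a median of 0.87 on the log2 scale and reached 1.48, so this design left wide limits on each difference.

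The outcome depended on BPA liver 910. Without it, limma called 18 members in liver, 10 higher and 8 lower, beside 16.5% of all genes. The 8 lower were SF3B5, SNRPG, SNRPD2, SNRPB, HNRNPAB, HNRNPH2, SRSF9 and PRPF19, with log2 differences of -2.33 (SF3B5) to -1.23 (PRPF19). The 10 higher were PRPF39, SRSF5, PRPF3, SRSF7, PRPF40B, SRSF6, HNRNPH1, PRPF4B, HNRNPDL and PRPF4, with differences of 0.97 (PRPF4) to 2.14 (PRPF39). Without both 902 and 910 it called 35 members, 19 higher and 16 lower, beside 43.1% of all genes. Both libraries were singled out for their values in these data. These counts, and the single-gene limma p-values without 910 given below, describe the remaining libraries and do not replace the result over all 8. With the spread estimated over all 16 libraries in 1 fit limma called 17, beside 14.7% of all genes. That spread draws on muscle too, where the members' within-group standard deviation had a median of 0.12, against 0.53 in liver. Its p-values therefore do not measure the spread among livers alone. Leaving out control liver 902 alone gave 0 called members, with a Sm median of -1.30 and an SR median of 0.86. With single livers left out in turn, the Sm median ran from -1.41 (without BPA liver 910) to -0.83 (without BPA liver 977). The SR median ran from 0.47 (without BPA liver 918) to 0.94 (without BPA liver 910), and it was 0.50 without BPA liver 977. Depth also moved with the groups, since 3 of the 4 BPA livers were shallower than 3 of the 4 controls. With log2 depth as a covariate 0 members were called by limma, and the medians were -0.97 for Sm and 0.43 for SR genes.

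**Figure D2:**
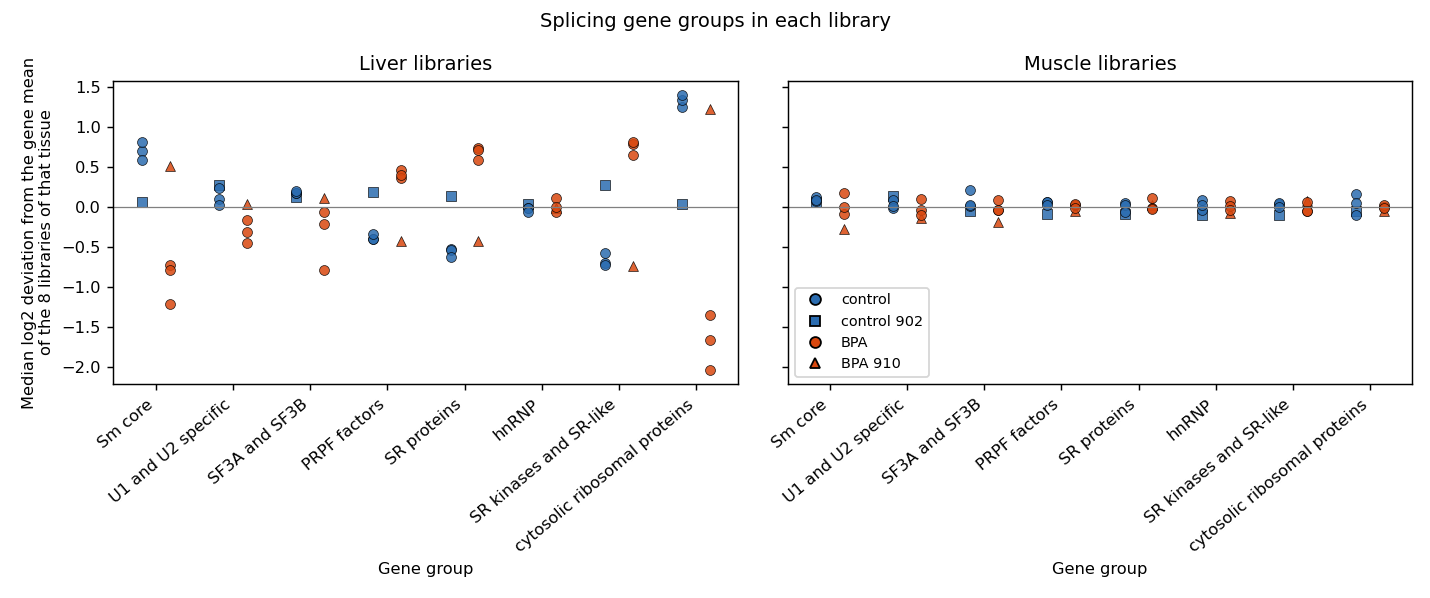
For each gene group (horizontal axis) every library is 1 point, at the median over the group's genes of log2(count + 1) minus the gene mean over that tissue's 8 libraries. In liver the Sm points of BPA animals 918, 977 and 984 lie between -1.22 and -0.72 and their SR points between 0.58 and 0.73, whereas the triangle of BPA animal 910 lies among the controls.

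The 7 Sm core genes encode the proteins of the ring, and each is described here by library in liver. SNRPD2 measured 155, 238, 235 and 259.7 in control livers and 213, 58.3, 69.9 and 54.6 in BPA livers. BPA livers 918, 977 and 984 lay below every control, while 910 lay inside the control range. The log2 difference was -1.38 (SE 0.44, limma adjusted p = 0.256), and without 910 it was -1.83 with a limma adjusted p of 0.0083.

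SNRPB, whose 2 protein forms (SmB and SmB′) come from alternative splicing, showed the same division. Its counts were 215, 394, 416 and 507 in controls against 339, 129, 82.3 and 134 in BPA livers, a log2 difference of -1.29 (SE 0.45, limma adjusted p = 0.256). For SNRPE the counts were 54.6, 80.5, 78.2 and 87.2 in controls and 56.6, 45.8, 16.2 and 26.9 in BPA livers, a log2 difference of -1.15 (SE 0.43, limma adjusted p = 0.256). In both genes only 910 among the BPA livers reached the control range.

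SNRPG was the most variable of the ring genes in liver. Controls held 20.7, 37.2, 28.4 and 51.0 and BPA livers 29.8, 10.4, 7.49 and 5.04. This amounted to a log2 difference of -1.53 (SE 0.58, limma adjusted p = 0.258) and the highest liver exceeded the lowest by 10.1 times. In BPA livers 918, 977 and 984 a single read equalled 2.08, 1.25 and 0.84 normalised counts. The SNRPG values there thus rest on few reads, and counting noise adds to this spread.

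The other three ring genes were less uniform. SNRPD3 stood at 268, 460.3, 416 and 472 in controls against 485, 206, 275 and 276 in BPA livers, a log2 difference of -0.42 (SE 0.33, limma adjusted p = 0.485). SNRPF stood at 69.7, 76.4, 82.5 and 110.1 against 58.1, 91.6, 22.5 and 66.4, a log2 difference of -0.64 (SE 0.44, limma adjusted p = 0.42). SNRPD1 was the exception in sign, at 128, 179, 237 and 189 in controls and 268, 179, 273 and 183 in BPA livers, with a log2 difference of 0.30 (SE 0.30, limma adjusted p = 0.572). In these 3 genes the groups overlapped broadly. The ring genes thus did not keep constant proportions between livers, although their proteins are used in equal number.

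Among the 4 genes specific to the U1 or U2 particle, 3 estimates were below 0 and none had an unadjusted p under 0.05. SNRPB2, a U2 protein, had the smallest p, with 143, 110.1, 107 and 101 in controls and 97.1, 148, 57.4 and 61.3 in BPA livers. It differed by -0.43 on the log2 scale (SE 0.36, limma adjusted p = 0.497), with overlapping groups.

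The SF3A and SF3B genes, which anchor the U2 particle at the branch point, had 8 of 9 estimates below 0 and a median of -0.46, which was -0.25 without BPA liver 918. With total read scaling 2 of the 9 estimates were above 0 and the median was -0.29. Their summed share, which weights genes by their counts, went the other way. It was 10.3 to 14.9 reads per 10000 in BPA livers 918, 977 and 984 and 5.69 to 5.90 in control livers 908, 924 and 928. Control liver 902 held 10.5 and BPA liver 910 held 5.25. SF3B1 had the largest count of the 9 genes in every liver, so this share does not describe the 8 genes with estimates below 0. SF3B5, a small SF3B subunit, measured 111, 202, 194 and 242 in control livers. Its BPA livers measured 179.6, 29.1, 42.4 and 34.4, so that again only 910 lay in the control range. This gave a log2 difference of -1.75 (SE 0.56, limma adjusted p = 0.256), and -2.33 with a limma adjusted p of 0.00777 without 910. SF3B1, the large subunit that grips the branch point helix, had the only estimate above 0 of these 9 genes (0.89, SE 0.44, limma adjusted p = 0.3). SF3B1 counts were 4281, 2871, 3075 and 2722 in controls and 3101, 11580, 5929 and 5664 in BPA livers.

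SF3B2 was 1 of 2 members whose BPA livers all lay below all controls, the other being HNRNPUL1. No member lay entirely above, and non-overlap in either direction was found for 7.61% of all genes (3.63% higher and 3.98% lower). SF3B2 counts were 1246, 1082, 1154 and 1133 in controls and 1032, 448, 969 and 916 in BPA livers. Its log2 difference of -0.52 (SE 0.32) had a limma adjusted p of 0.374.

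Of 13 PRPF genes, 10 had estimates above 0 in BPA liver, with a median of 0.41. With single livers left out, the median ran from 0.30 (without BPA liver 918) to 0.72 (without control liver 902). It was 0.62 without BPA liver 910 and 0.25 with log2 depth as a covariate. PRPF3, a protein of the U4/U6 particle, measured 931, 434, 420.1 and 298 in controls against 474, 1961, 1586 and 1830 in BPA livers. The log2 difference was 1.43 (SE 0.52, limma adjusted p = 0.256), and BPA animals 918, 977 and 984 exceeded every control. PRPF4, which binds PRPF3 in the same particle, measured 168, 187, 149 and 171 against 168, 396, 287 and 316, a log2 difference of 0.73 (SE 0.31, limma adjusted p = 0.267).

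PRPF19, the ubiquitin ligase of the complex that bears its name, went the other way, with an estimate of -0.92 (SE 0.39, limma adjusted p = 0.269). Its counts were 343, 618, 618 and 657 in controls and 549, 171, 276 and 260.4 in BPA livers. PRPF8, the scaffold of the catalytic centre, measured 2968, 6129, 6275 and 5266 in controls and 5744, 2773, 2960 and 2855 in BPA livers. Here control liver 902 lay with BPA livers 918, 977 and 984, and BPA liver 910 with the other controls.

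Among the 6 groups of members, SR genes had the highest median estimate in BPA liver. SRSF5 measured 2431, 1365, 1593 and 1270 in control livers and 1542, 4955, 5889 and 7772 in BPA livers. Its log2 difference was 1.43 (SE 0.51, limma adjusted p = 0.256), and 1.92 with a limma adjusted p of 0.0121 without 910. Control liver 902 was the highest control but lay below BPA livers 918, 977 and 984.

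SRSF7, an SR protein with a zinc knuckle that also takes part in messenger RNA export, measured 761, 525, 431 and 368 in controls. BPA livers held 492, 2159, 1257 and 1267 (log2 difference 1.18, SE 0.45, limma adjusted p = 0.258). SRSF6, an activator of exon inclusion, held 2839.7, 2239, 2185 and 1999.8 in controls and 2035, 7375, 5276 and 5345 in BPA livers (log2 difference 0.98, SE 0.43, limma adjusted p = 0.272). The pattern of SRSF5 recurred in both genes.

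SRSF9 was the 1 SR gene with an estimate below 0. Control livers held 286, 380.5, 390.3 and 428 and BPA livers 310.3, 121, 189.6 and 162. The log2 difference was -0.99 (SE 0.33, limma adjusted p = 0.256), and BPA livers 918, 977 and 984 were the lowest, as for SNRPD2. SRSF3 and SRSF2, which like other SR genes carry conserved exons that lead to decay, had estimates of 0.17 (SE 0.28) and 0.22 (SE 0.41), with limma adjusted p of 0.752 and 0.775.

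hnRNP genes divided within the family. HNRNPAB measured 840.4, 1135, 986 and 1040 in controls and 896, 273, 450.4 and 292 in BPA livers. Its log2 difference of -1.23 (SE 0.39, limma adjusted p = 0.256) had the smallest unadjusted p of all members, 0.0103 by limma. BPA liver 910 lay between the lowest and the second lowest control.

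HNRNPDL and HNRNPH1 had estimates above 0. HNRNPDL, whose transcript is itself subject to regulated splicing, held 1474, 866, 1206 and 1086 in controls and 1186, 2780, 2222 and 2259 in BPA livers, a log2 difference of 0.83 (SE 0.34, limma adjusted p = 0.266). HNRNPH1 held 3073, 2309, 2440 and 1959 in controls and 2304, 7266, 6049 and 4938 in BPA livers, a log2 difference of 0.97 (SE 0.41, limma adjusted p = 0.268). Its close relative HNRNPH2 had an estimate of the opposite sign, -1.06 (SE 0.48, limma adjusted p = 0.277), with 362, 522, 547 and 539.6 in controls and 581, 292, 111 and 154 in BPA livers. These genes are closely similar in coding sequence, so the division of reads between them is uncertain.

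HNRNPUL1, a nuclear RNA-binding protein, was the second member without overlap, at 3707, 1645, 1730 and 1852 in controls and 1586, 691, 1166 and 1546 in BPA livers. Its log2 difference was -0.83 (SE 0.39, limma adjusted p = 0.291), with control liver 902 far above the rest. HNRNPA1, a repressor of exon inclusion, was the steadiest member in liver, at 1867, 1843, 2015 and 1990 in controls and 2011, 2559, 2228 and 2176 in BPA livers (log2 difference 0.21, SE 0.26, limma adjusted p = 0.662). HNRNPA1 has many processed copies in mammalian genomes, and how reads from such copies were assigned is not given in the sources used here.

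The summed SR count divided by the summed Sm count gave 1 number per library. It compares libraries and not genes, since counts are not per length, and it does not depend on how libraries are scaled. In control livers it was 18.7, 7.25, 7.495 and 5.97, and in BPA livers 7.41, 38.8, 34.0 and 37.5. In muscle all 8 libraries lay between 3.63 and 4.93, so every liver exceeded every muscle. BPA liver 910 fell among control livers 908, 924 and 928, and control liver 902 lay between those and the other BPA livers. Both parts of the ratio contributed: the Sm sum was 720.4 to 747 in BPA livers 918, 977 and 984 and 910.1 to 1676 in the other 5 livers, while the SR sum was 25358 to 27975 and 10005 to 17063, respectively. The hnRNP sum was 37697 to 49076 in those 3 livers and 30392 to 34791 in the other 5.

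Cytosolic ribosomal protein genes, which like the Sm genes encode small and abundant proteins, moved with the Sm genes. Their library medians were 0.04, 1.25, 1.33 and 1.40 in control livers and 1.22, -1.35, -1.67 and -2.04 in BPA livers, and their median log2 difference was -2.001 over 72 genes. No ribosomal protein gene passed the limma threshold in liver. The 9 macrophage markers were all below 0 in BPA liver (median -1.69), as were the 11 fibroblast markers (median -2.10), and 11 of 14 hepatocyte markers (median -0.37). The part of depth, cell makeup and the 2 libraries that stood apart in the Sm and SR values was not tested.

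**Figure D3:**
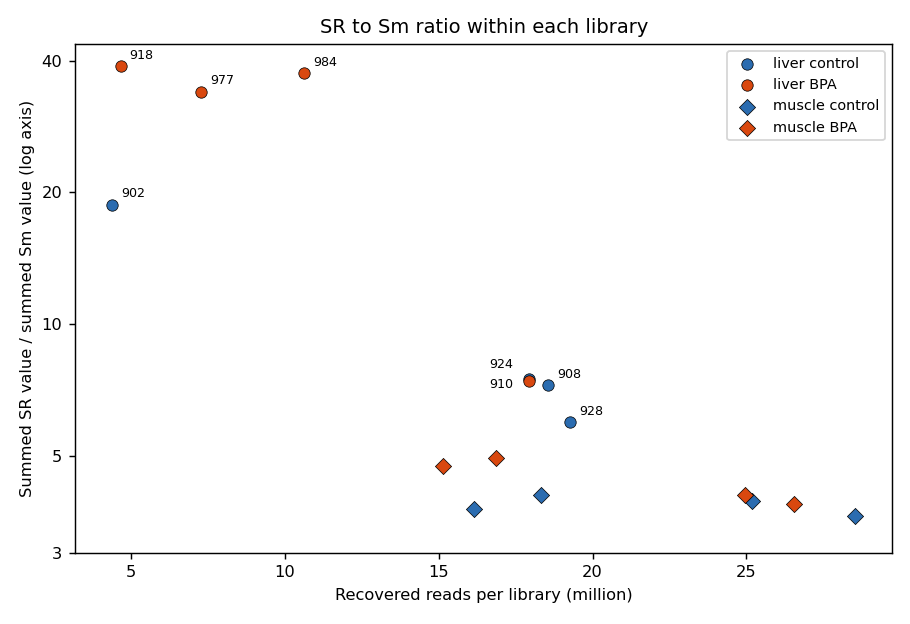
The summed SR count over the summed Sm count (vertical, log axis) is plotted against recovered reads in M for the 16 libraries, with liver points labelled by animal. BPA livers 918, 977 and 984 lie at 34.0 to 38.8, control liver 902 at 18.7, the other 4 livers at 5.97 to 7.495 and muscle at 3.63 to 4.93.

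In muscle, no member passed the test for BPA against control. By limma 0 of 64 members passed, beside 0.129% of 14706 genes, and 4 members had an unadjusted p under 0.05 (1 higher, 3 lower) beside 7.77% of all genes (3.76% higher and 4.01% lower). The edgeR and DESeq2 tests called 0 members as well, as did total read scaling, beside 0.109% of all genes. All estimates lay between -0.37 and 0.31 on the log2 scale. The 95% intervals had a median half-width of 0.21, and the medians were -0.14 for Sm, 0.04 for SR and -0.002 for hnRNP genes. The Sm median was -0.070 without BPA muscle 910 and -0.19 without BPA muscle 918, and the SR median was -0.002 without BPA muscle 977.

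All 7 Sm estimates were below 0 in muscle by limma, but 2 of them were above 0 by edgeR and with total read scaling and 1 by DESeq2. Of all genes 49.5% had a limma estimate above 0. The widest Sm estimate was SNRPF at -0.26 (SE 0.18, limma adjusted p = 0.782). SNRPD3 had the smallest p, with 651, 662, 615 and 691 in controls and 490.3, 587, 569.9 and 626 in BPA muscle, a log2 difference of -0.21 (SE 0.09, limma adjusted p = 0.635). BPA muscle 910 was lowest and 984 reached the control range. SNRPD2 measured 489.5, 524, 468 and 499.6 against 383, 500.3, 448 and 468 (log2 difference -0.14, SE 0.10, limma adjusted p = 0.777). BPA muscle 910 gave the lowest value of the 8 in SNRPD2, SNRPD3, SNRPB, SNRPF, SNRPD1 and SNRPG, and its Sm median of -0.28 was the lowest among muscles. The estimates of SNRPB (-0.01) and SNRPG (-0.02) were near 0 and took the other sign under some settings.

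SRSF5 had the smallest p of all members in muscle and the highest estimate there. Control muscles held 1076, 1366, 1211 and 1135 and BPA muscles 1516, 1257, 1705 and 1457, a log2 difference of 0.31 (SE 0.11, limma adjusted p = 0.487). BPA muscle 918 lay inside the control range. SF3B5 measured 217, 249.5, 276 and 231 in controls against 148, 221, 182 and 204 in BPA muscle, a log2 difference of -0.37 (SE 0.14, limma adjusted p = 0.507), with only 918 above the lowest control. SRSF5 and SF3B5 had estimates of the same sign in liver, from other libraries of the same animals. HNRNPA0 (-0.99 in liver) and PRPF4 (0.73 in liver) had estimates of opposite sign in liver and muscle. Agreement in sign was not counted over all members.

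SNRPA1, which binds SNRPB2 in the U2 particle, held 239.9, 245, 202 and 242 in control muscle and 206, 191, 185 and 201 in BPA muscle. The log2 difference was -0.24 (SE 0.10, limma adjusted p = 0.605), and the overlap came from control muscle 924 and BPA muscle 910. HNRNPA0 was the 1 member whose muscle groups did not overlap, where 4.53% of all genes did not (2.05% with BPA higher). Its counts were 281, 358, 340.3 and 358 in controls and 375, 367, 363 and 387 in BPA muscle, a log2 difference of 0.16 (SE 0.10, limma adjusted p = 0.749).

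Other estimates in muscle were 0.15 (SE 0.08) for HNRNPH1, 0.15 (SE 0.10) for HNRNPH3, 0.12 (SE 0.10) for SRSF3, -0.13 (SE 0.08) for HNRNPUL1 and -0.11 (SE 0.10) for PRPF4. Their limma adjusted p ranged from 0.72 for HNRNPH1 to 0.821 for PRPF4, and the groups overlapped in each.

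The difference between the BPA effects of the 2 tissues was tested itself. By limma 0 of 64 members passed, beside 0% of 13677 genes, and 15 had an unadjusted p under 0.05 (7 higher, 8 lower in liver relative to muscle) beside 19.5% of all genes (7.69% higher and 11.8% lower). The edgeR and DESeq2 tests called 0 members. HNRNPAB had the smallest limma adjusted p, 0.202, with a difference of -1.19 (SE 0.41), followed by SRSF9 (-0.97, SE 0.34, limma adjusted p = 0.205) and PRPF4 (0.84, SE 0.30, limma adjusted p = 0.209). Medians were -1.02 over the Sm genes and 0.64 over the SR genes. Without BPA liver 910 limma called 27 members, 15 higher and 12 lower, beside 25.9% of all genes, and without livers 902 and 910 it called 38 beside 46.9%. These fits draw their spread from liver and muscle together, so their p-values do not measure the spread among livers alone.

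Between tissues, SR genes were mostly higher in liver, whereas the direction of many other members depended on how libraries were scaled. With the deposited size factors, Sm, U1, U2 and SF3 genes were mostly lower in liver. By limma 39 of 64 members passed (60.9%), 14 higher and 25 lower in liver, where 71.6% of 16718 genes passed (36.6% higher and 35% lower). By edgeR 67.2% of members and 72.9% of genes passed. Of the 11 SR genes, 8 were higher and 1 lower, and of the 7 Sm genes 5 were lower and 0 higher. Lower in liver were also 3 of 4 genes of the U1 and U2 particles, 6 of 9 SF3 genes and 8 of 20 hnRNP genes. PRPF genes divided into 5 higher and 2 lower, and HNRNPF was the 1 hnRNP gene that was higher. The median log2 difference was -0.85 for Sm, 0.50 for SR and -0.28 for hnRNP genes. It was 0.09 over all genes, which edgeR scaling moved to 0.22 and DESeq2 to 0.18, and under those tools the Sm median was -0.76 and -0.79 and the SR median 0.59 and 0.55.

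Scaling to total reads, an alternative added after the data were seen, moved the median of all genes from 0.09 to 1.01. Limma then called 46 members, 41 higher and 5 lower in liver, beside 77% of all genes (59.6% higher and 17.4% lower). The 14 members called higher with the deposited factors were called higher again. Of the 25 called lower, 5 were called lower again, namely SRSF12, SNRPD2, SNRPG, SNRPB and SNRPC. Another 16 were not called, and HNRNPK, HNRNPA1, HNRNPM and HNRNPD were called higher. The Sm median was 0.07 and the SF3 median 0.36, both below the median of all genes, and the SR median was 1.44, above it. In reads per 10000, Sm genes took 1.10 to 1.29 in control livers and 1.06 in BPA liver 910. They took 0.742 to 0.836 in BPA livers 918, 977 and 984, and 0.937 to 1.12 in all muscles. SF3 genes took 5.25 to 14.9 in all livers and 3.69 to 4.41 in all muscles. Neither scaling measures transcripts per cell. Tissue values below use the deposited factors unless stated.

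SRSF6 differed most among the genes higher in liver. Its liver counts ran from 1999.8 to 7375 with a median of 2539, and its muscle counts from 1164 to 1331 with a median of 1235. The log2 difference was 1.39 (SE 0.20, limma adjusted p = 1.49e-05), the tissues did not overlap and liver was higher in 8 of 8 animals, by 0.75 to 2.55. SRSF11 ranged from 1084 to 3645 (median 1753) in liver and from 807 to 932 (median 874) in muscle. Its log2 difference was 1.10 (SE 0.21, limma adjusted p = 0.000249), also without overlap.

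SRSF7 was higher in liver in 8 of 8 animals, although the ranges of 368 to 2159 in liver and 312 to 386 in muscle met (log2 difference 1.08, SE 0.24, limma adjusted p = 0.000673). SRSF5 had a log2 difference of 0.99 (SE 0.26, limma adjusted p = 0.00312), with liver higher in 7 of 8 animals. PRPF38B, a factor related to the activation step of the spliceosome, ranged from 501 to 1483 in liver and from 346 to 458 in muscle (log2 difference 1.01, SE 0.22, limma adjusted p = 0.000664). For these genes the BPA livers other than 910, and control liver 902, gave the highest values, so the size of the tissue difference varied by animal.

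SRSF12 was the 1 SR gene lower in liver, and by the widest margin of all members. Liver counts ran from 8.95 to 39.6 (median 12.6) and muscle counts from 61.4 to 127 (median 88.4). Its log2 difference was -2.46 (SE 0.31, limma adjusted p = 2.25e-06), and liver was lower in 8 of 8 animals. It was -1.54 with total read scaling. Among Sm genes, SNRPD2 ranged from 54.6 to 259.7 in liver and from 383 to 524 in muscle (log2 difference -1.80, SE 0.23, limma adjusted p = 3.76e-06). SNRPB ranged from 82.3 to 507 in liver and from 547 to 723 in muscle (log2 difference -1.46, SE 0.24, limma adjusted p = 4.49e-05). SNRPD2 differed by -0.86 and SNRPB by -0.52 with total read scaling, both still called.

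SNRPG (-1.49, SE 0.30, limma adjusted p = 0.000313), SNRPE (-0.85, SE 0.22, limma adjusted p = 0.00257) and SNRPD3 (-0.83, SE 0.17, limma adjusted p = 0.000362) were also lower in liver. SNRPF (-0.38, SE 0.24, limma adjusted p = 0.171) and SNRPD1 (0.21, SE 0.15, limma adjusted p = 0.232) did not pass. With total read scaling SNRPG differed by -0.59 (limma adjusted p = 0.046), SNRPE by 0.07 and SNRPD3 by 0.10, the latter both without a call, and SNRPD1 was called higher in liver at 1.14 (limma adjusted p = 1.99e-06). With the deposited factors liver was lower in 8 of 8 animals for SNRPB, SNRPD2, SNRPD3 and SNRPE. Ribosomal protein genes went with them, with 68 of 73 called lower in liver and a median of -1.72, and with total read scaling 48 of 73 and a median of -0.79.

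The members lower in liver varied between livers by 1.39 times from lowest to highest (HNRNPA1) to 10.1 times (SNRPG, at few reads). SF3A3, SNRPA1, SNRPC, PRPF6 and HNRNPUL2 were among the steadier ones, at 1.48 times (PRPF6) to 2.15 times (SNRPC). SF3A3 ranged from 307 to 470.5 in liver and from 693 to 956 in muscle (log2 difference -1.10, SE 0.12) and had the smallest limma adjusted p of all members, 4.67e-07. SNRPA1 ranged from 88.2 to 142 and from 185 to 245 (-0.97, SE 0.12, limma adjusted p = 1.85e-06), and SNRPC, a U1 protein at the 5′ splice site, from 139 to 298 and from 383 to 592 (-1.26, SE 0.18, limma adjusted p = 1e-05). PRPF6, a bridge of the tri-snRNP, held 609.9 to 904 in liver and 1099.7 to 1394 in muscle (-0.79, SE 0.11, limma adjusted p = 8.7e-06). HNRNPUL2 held 1093 to 1781 and 2499.6 to 2912 (-0.82, SE 0.12, limma adjusted p = 1.73e-05). In these 5 genes the tissues did not overlap. With total read scaling the difference was -0.32 for SNRPC (limma adjusted p = 0.036), and the other four were not called, at -0.16 for SF3A3, -0.04 for SNRPA1, 0.15 for PRPF6 and 0.12 for HNRNPUL2.

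HNRNPF, which binds runs of G and is related to HNRNPH1, ranged from 2156 to 3229 in liver and from 1624 to 2123 in muscle. Its log2 difference was 0.62 (SE 0.12, limma adjusted p = 0.000209), with liver higher in 8 of 8 animals. In all, 6 members were higher in liver in all 8 animals and 20 lower in all 8, where the shares over all genes were 26.1% and 25.7%. With total read scaling these were 32 members higher and 1 lower, beside 47.3% and 11.4% of all genes. The ranges of the tissues did not overlap for 16 members, 5 higher and 11 lower in liver, beside 40.9% of all genes (20.1% higher and 20.8% lower). With total read scaling 28 lay higher and 1 lower without overlap, beside 40.1% and 9.07% of all genes. Without livers 902 and 910 limma called 48 members between tissues, beside 80.3% of all genes. With the animal as a block it called 36, beside 69.5%.

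**Figure D4:**
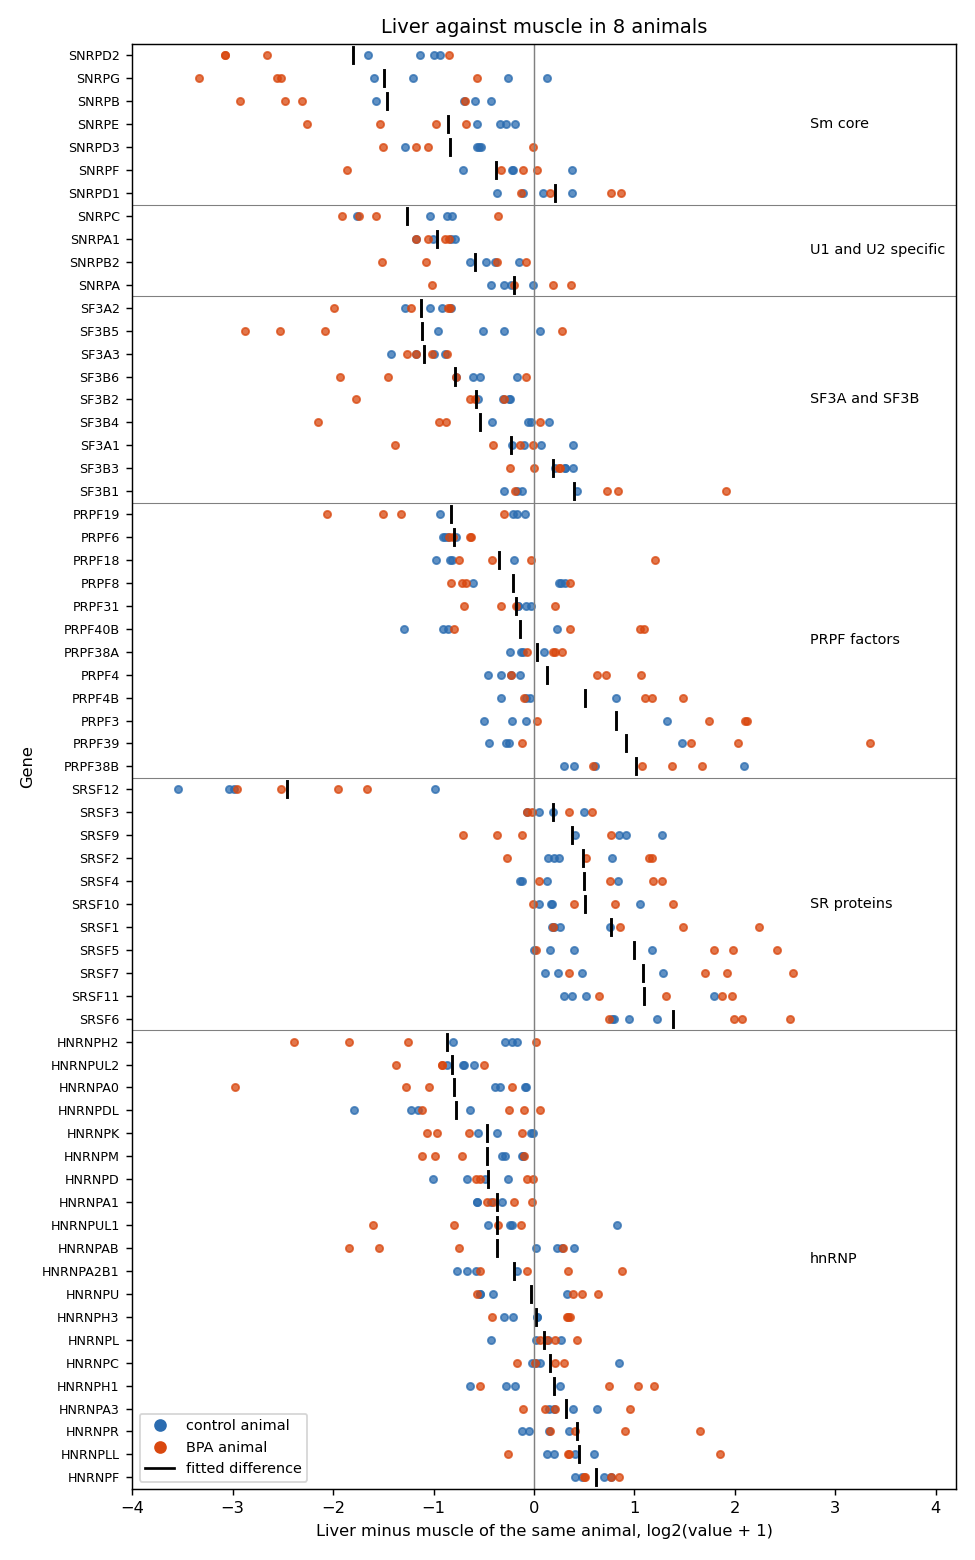
Each point is the liver value minus the muscle value of 1 animal on the log2(count + 1) scale with the deposited factors, and the black bar is the fitted tissue difference. Points of SF3A3, SNRPA1, PRPF6 and HNRNPF lie close together, whereas those of SNRPD2, SNRPB, SNRPG, SRSF5 and SRSF7 spread, with 3 of the 4 BPA animals at the far end.

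The other splicing genes, 126 names in 6 lists, gave the surroundings of these families. In BPA liver by limma 0 of 123 tested passed, and 14 (11.4%) had an unadjusted p under 0.05, beside 18.1% of all genes. All 9 tested SR kinases and SR-like genes had estimates above 0 (median 0.70), as did 15 of 18 factors of U2AF, the branch point and the bridge between splice sites (median 0.78). Library medians of the kinase list were 0.27, -0.58, -0.70 and -0.73 in controls and -0.74, 0.78, 0.81 and 0.64 in BPA livers, with the same 4 livers above 0 as for the SR genes. CLK4, a kinase that phosphorylates SR proteins in the nucleus, measured 1180, 566, 669 and 639.5 in controls and 756, 6966, 2349 and 2186 in BPA livers (log2 difference 1.64, SE 0.59, limma adjusted p = 0.256). Its relative CLK1 measured 1913, 816, 614 and 569.8 against 649.6, 11390, 3564 and 3274 (1.83, SE 0.78, limma adjusted p = 0.268).

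The other lists were mixed in liver. Other snRNP and LSM genes had 8 of 23 estimates above 0 (median -0.43), the catalytic list 17 of 26 (median 0.15), the assembly list 6 of 13 (median -0.19) and other regulators 13 of 34 (median -0.15). The smallest p in each were those of LSM7, a protein of the ring on U6 RNA (-1.19, SE 0.43, limma adjusted p = 0.256), PPIL1, a prolyl isomerase of the catalytic spliceosome (-1.28, SE 0.45, limma adjusted p = 0.256), GEMIN7 of the Sm ring assembly complex (-1.32, SE 0.57, limma adjusted p = 0.27) and PTBP2, a polypyrimidine tract binding protein (1.38, SE 0.47, limma adjusted p = 0.256). TIA1, which binds U-rich sequence next to 5′ splice sites, had the smallest in the U2AF list (0.97, SE 0.39, limma adjusted p = 0.265). The spread of LSM7 resembled that of the Sm genes, at 88.6, 147, 124 and 154 in controls and 128, 37.5, 48.6 and 37.8 in BPA livers.

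In BPA muscle 0 of 124 of these genes passed by limma and 5 (4.03%) had an unadjusted p under 0.05, beside 7.77% of all genes. RBM20, which represses exons of titin and other sarcomere genes, had the smallest p of them. It measured 1052, 1308, 1379 and 1342 in control muscle and 779, 902, 912 and 944 in BPA muscle. The groups did not overlap, and the log2 difference was -0.52 (SE 0.10, limma adjusted p = 0.113). RBM38, an RNA-binding protein of differentiating muscle, held 7102, 7119, 6122 and 6782 against 4725, 5157, 5985 and 5596, also without overlap (-0.34, SE 0.10, limma adjusted p = 0.322). Of these 124 genes 6 did not overlap (4.84%), beside 4.53% of all genes.

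Between tissues 89 of the 126 passed by limma (70.6%, beside 71.6% of all genes), 27 higher and 62 lower in liver. These were 75 higher and 18 lower with total read scaling. The widest differences were in regulators tied to striated muscle. RBM24 ranged from 2.08 to 15.1 in liver and from 2099 to 3088 in muscle (log2 difference -8.09, SE 0.25, limma adjusted p = 5.85e-14), and the muscle SR kinase SRPK3 from 3.77 to 15.0 and from 872 to 1283 (-7.09, SE 0.23, limma adjusted p = 1.12e-13). RBM47, an RNA-binding protein of liver and gut epithelium, was higher in liver, at 545 to 1124 against 15.5 to 41.2 in muscle (5.17, SE 0.19, limma adjusted p = 6.5e-13). EFTUD2, the U5 GTPase, ranged from 375 to 773 in liver and from 1386 to 1625 in muscle (-1.52, SE 0.11, limma adjusted p = 5.09e-09), and differed by -0.58 with total read scaling. Of the other snRNP and LSM genes 18 of 23 were lower in liver and 3 higher, against 3 lower and 5 higher with total read scaling. Of the 10 SR kinases and SR-like genes 5 were higher and 1, SRPK3, lower, against 9 and 1 with total read scaling.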

How the data were processed

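RNA was sequenced from liver and vastus lateralis of 8 sheep, with a low-input kit after ribosome depletion, per the labels' protocols. The submitters' processing notes name Trimmomatic, FastQC and DESeq2 1.24.0. For the aligner, counter, annotation, genome build and strandedness the sources used here give nothing, so genes with near-identical copies or antisense partners are uncertain. The deposited table holds a signal per gene, read counts divided by the authors by 1 size factor per library. Within 0.1 read, at least 99.996% of values per library were whole multiples of 1 step, which gave whole reads.

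BPA and control were compared within each tissue by limma 3.58.1, run in R 4.3.3 on log2(value + 1) with eBayes and an intensity trend. Genes entered with a mean of 10 or more in that tissue, and p-values were adjusted by Benjamini-Hochberg over all of them, at a threshold of 0.05. One fit of 4 group means over 16 libraries gave the tissue difference (genes reaching 10 in either tissue) and the difference between BPA effects (in both). Recovered reads were tested with edgeR 4.0.16 and DESeq2 1.42.0. Other alternatives were pseudocounts, filters, TMM scaling, scaling to total reads (added after the data were seen), quality weights, depth as a covariate, and leaving out libraries. Scripts were tested on simulated data.

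Group medians and ratios have no test. Members and lists were chosen with earlier results of these data known. Members named by rule are the 5 smallest p per direction for BPA in liver and for BPA in muscle, and every Sm gene. Others are the smallest p of each member group and the 5 widest tissue differences per direction. For BPA in liver these are given by library. In muscle some are given only as an estimate or within a count, and between tissues as ranges or estimates. For other lists genes of smallest p are named. Members called without BPA liver 910, and the members that kept or changed direction under total read scaling, are named too. PRPF8, PRPF19, PRPF39, SF3B1, SF3B2, SRSF2, SRSF6, HNRNPA1, HNRNPF, HNRNPH2, CLK1 and RBM38 were added after their values were seen.

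Sheep numbers in the labels mark the same animal in both tissues, which pairs them. Deviations of an animal's liver and muscle correlated across genes by -0.10 to 0.12, and 1 of 8 livers correlated best with its own muscle, so the pairing rests on the labels. The values of 1 member, which is included in the counts and medians, are not reported here.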

Additional observations from a re-analysis of the deposited data

Results flagged for a closer look

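Of 148 groups of 4 libraries looked at (the named genes and the library medians of each gene group), 12 held a library far from the other three. Chance alone flags about 1 in 20 such groups.

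Control liver 902 accounted for 6 of these. It held HNRNPUL1 at 3707 against 1645 to 1852 in the other controls, SRSF11 at 2857 against 1084 to 1246, PRPF38B at 1483 against 501 to 601, and SRSF12 at 39.6 against 8.95 to 13.4. Its SR median was 0.14 against -0.63 to -0.53, and its PRPF median 0.18 against -0.40 to -0.34. BPA liver 910 accounted for 5. It held SF3B5 at 179.6 against 29.1 to 42.4 in the other BPA livers and SNRPD2 at 213 against 54.6 to 69.9. Its SR median was -0.43 against 0.58 to 0.73, its PRPF median -0.43 against 0.36 to 0.46, and its Sm median minus that of SR and hnRNP genes 0.73 against -1.26 to -0.95. In muscle, control 924 held SNRPA1 at 202 against 239.9 to 245.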

How the results depend on the processing

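The members named by rule in each comparison were followed under the alternatives. Of their values, 1311 kept their direction and side of the threshold. Another 69 passed only under the alternative (51 for BPA in liver, 17 for the difference between the BPA effects and 1 for liver against muscle). Only in the main test 2 passed, and 20 changed sign, none of these 20 past the threshold under the alternative. For liver against muscle 460 values kept direction and side. The 8 that did not all came from total read scaling, added after the data were seen, where PRPF6 was 0.146, HNRNPUL2 0.119, SNRPD3 0.105, SNRPE 0.0698 and SNRPF 0.549. HNRNPK, HNRNPA1, HNRNPM and HNRNPD were not among the members followed for liver against muscle. They were called lower in liver with the deposited factors and higher with total read scaling. That scaling moved the called members from 14 higher and 25 lower to 41 and 5, and the median of all genes from 0.09 to 1.01. The number of members called for BPA in liver was 0 in the main test. It was 17 with all 16 libraries in 1 fit, 47 with sample quality weights (beside 61.1% of all genes), 35 without livers 902 and 910, and 0 to 18 when each library was left out in turn, the 18 without BPA liver 910. The fit over 16 libraries drew its spread partly from muscle. The weights were set from how far each library lay from its labelled group in these data. Neither count replaces the main result. For the difference between BPA effects the number called was 0 in the main test, 38 without livers 902 and 910 (an alternative added after the data were seen), and 0 to 27 leaving out single libraries, the 27 without BPA liver 910. The cause of this dependence was not tested. These fits, too, drew their spread partly from muscle. Liver against muscle gave 34 to 48 called members. With the animal as a replicate block it gave 36, all among the 39, and the difference between BPA effects gave 0, so the pairing changed no other call.

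The library medians of each gene group were also compared, as their mean in BPA libraries minus their mean in control libraries. This is another quantity than the median of gene estimates given in the Results. For hnRNP genes in liver it was 0.02. It ranged from -0.053 (without BPA liver 918) to 0.0404 (without 910), and was 0.194 with total read scaling. That scaling also gave differences of library medians of -0.212 for U1 and U2 genes in liver and, in muscle, 0.128 for SR, 0.0866 for hnRNP and 0.0788 for PRPF genes. Signs changed for values near 0. SNRPB in muscle (-0.01) was 0.0024 by edgeR, 0.0038 with depth as a covariate, 0.036 with weights and 0.0728 with total read scaling, and -0.073 to 0.061 leaving out single libraries. SNRPG in muscle (-0.02) was 0.0026 by edgeR, 0.0017 by DESeq2, 0.119 with weights and 0.0634 with total read scaling, and -0.117 to 0.073 leaving out single libraries. The difference between the BPA effects of the tissues for SNRPF (-0.38) was -0.64 to 0.025 leaving out single libraries. With 4 libraries a group, the liver was limited most, with 2 libraries under 5 M reads and interval half-widths up to 1.48.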
